A study of Mus musculus with 44 samples.

Results

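The CTCF peaks of 2 imprinted domains were examined, that of *Gnas* and *Nespas* on chromosome 2 and that of *Airn*, *Igf2r*, *Slc22a2* and *Slc22a3* on chromosome 17. A peak was taken when its summit lay in or within 50 kb of 1 of these 6 genes (GENCODE vM21, mm10), and each peak was taken once. This gave 50 of the 103939 peaks in the 2 lists, of which 28 were from the *Setdb1* KO list of 59698 peaks and 22 from the WT list of 44241 peaks. CTCF had been mapped by ChIP-seq with an anti-CTCF antibody in mouse embryonic stem cells (ESCs) of the TT2 line (C57BL/6/CBA F1), either WT or *Setdb1* KO, where a conditional KO was induced by 800 nM 4-OHT (4-hydroxytamoxifen) for 4 days, with harvest on day 6. A second CTCF library of each condition is named in the labels but was not analysed here. Each condition thus had 1 library, so that there is no replicate error and the conditions could not be tested against each other. The WT cells are 1 clone and no other parental clone is named for the KO, so that WT cells may carry the conditional allele as well, and whether they received 4-OHT is not given in the sources used here. The cells are an F1 hybrid, but the lists join the reads of both parental alleles, so that no value below belongs to a maternal or paternal chromosome. The lists hold neither RNA nor *Setdb1* genotype, so that neither the KO label nor the cell type was checked.

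Imprinted genes are transcribed from the chromosome of 1 parent, and DNA methylation set in the germline at a control region marks which parent that is. In the *Gnas* domain, alternative starts give the maternal Nesp transcript and the paternal Gnasxl and exon 1A transcripts, while *Nespas* is a paternal antisense RNA that begins next to the Gnasxl start. *Airn* is a long antisense RNA that begins at a control region in an intron of *Igf2r*, the receptor that clears IGF2, and represses *Igf2r* on the paternal chromosome, as well as the organic cation transporter genes *Slc22a2* and *Slc22a3* in the placenta. SETDB1, which deposits H3K9me3, is known to be brought to the methylated copy of control regions by ZFP57 and TRIM28, and CTCF is a zinc finger protein of insulators and loop anchors whose binding is blocked by methylation at some of its sites.

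The sequences that carry the main observations come from the reference assembly (GRCm38.p6, the same build as mm10). The 201 bp round the summit at the Nesp start, chr2:174284095-174284295 on the plus strand, had a CTCF matrix match on the minus strand, whose 14 core letters are in capitals.
Nesp start, shared peak: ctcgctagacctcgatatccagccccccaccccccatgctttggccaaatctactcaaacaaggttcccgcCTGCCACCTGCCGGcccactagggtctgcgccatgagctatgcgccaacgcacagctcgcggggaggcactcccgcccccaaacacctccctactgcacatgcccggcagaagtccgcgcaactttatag
The 201 bp round the summit 443 bp upstream of the Gnasxl start, chr2:174297316-174297516 on the plus strand, are shown with TGCCGC, the letters that ZFP57 binds when methylated, in capitals (here as GCGGCA, on the minus strand).
Gnasxl start, KO-only peak: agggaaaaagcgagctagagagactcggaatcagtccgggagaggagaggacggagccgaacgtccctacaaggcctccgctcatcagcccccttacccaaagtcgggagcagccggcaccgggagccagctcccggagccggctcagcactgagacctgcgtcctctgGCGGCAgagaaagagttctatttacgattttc
In the *Nespas*/Gnasxl control region, 2 CTCF matrix matches were found, at chr2:174295449-174295468 and chr2:174297472-174297491, both on the minus strand and shown in the orientation of the motif with the 14 core letters in capitals.
*Nespas* start, outside any peak: ggtCCAATAGGGGGCGCcgc
Gnasxl start, inside the KO-only peak: ctgCCGCCAGAGGACGCagg
The latter match began 1 letter before a TGCCGC, so that both motifs share its 6 letters.

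On chromosome 17, the best matrix match within 50 bp of the summit is shown in the orientation of the motif, core in capitals, for the shared sites with the 2 highest ratios and for a KO-only peak with its closest relative among the shared sites.
Shared site 101.5 kb before the *Airn* start, chr17:12639774-12639793, minus strand, highest ratio: aggCCAGCAGGGGGCACcag
Shared site in the *Airn* and *Mas1* introns, chr17:12842887-12842906, minus strand, next highest: aagCCAGAAGAGGACGCtgt
KO-only peak in the *Airn* intron, chr17:12772263-12772282, minus strand: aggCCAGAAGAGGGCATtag
Shared site in the *Slc22a3* intron, chr17:12455328-12455347, minus strand: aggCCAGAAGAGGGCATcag
The cores of the last pair differed at 0 of 14 letters, and 1 of all 20 letters differed.

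In both domains together, 9 of 28 KO peaks had no WT peak overlapping them by 1 bp (KO-only), while 28.8% of the whole KO list was KO-only. Of the 22 WT peaks, 2 had no KO peak (WT-only), against 3.22% of the WT list. The *Gnas* domain (chr2:174231237-174396744, 165.5 kb) held 5 sites, 2 of them shared, 2 KO-only and 1 WT-only. The *Airn-Igf2r* domain (chr17:12368960-12910136, 541.2 kb) held 25 sites, 17 of them shared, 7 KO-only and 1 WT-only. CTCF peaks were denser in the *Airn-Igf2r* domain, with 3.51 WT and 4.44 KO peaks per 100 kb, than over the genome, with 1.62 and 2.19, whereas the *Gnas* domain had 1.81 and 2.42.

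For each peak, the authors' fold enrichment and p were turned back into the number of fragments over its summit (the pileup). The libraries were alike in depth, with 27.4 M tags in WT and 27.6 M in KO. Ratios of KO to WT pileups are given with exact Clopper-Pearson 95% intervals, which cover counting error only. Over the genome, the ratio had a median of 1.36 (quartiles 1.17 and 1.61) over 41876 sites where a single KO peak met a single WT peak. Pileups summed over these sites gave a ratio of 1.38. A KO-only peak does not mean that WT had no fragments there, since the WT list holds only called peaks, of which the lowest had 9 fragments, and therefore no fold is given for KO-only peaks.

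In the *Gnas* domain, CTCF was found in both lists upstream of the Nesp start and in a *Gnas* intron, and in the KO list alone at the *Nespas* and Gnasxl starts. The shared peak at the Nesp start (KO peak chr2:174283934-174284360, summit 125 bp upstream, in a *Nespas* intron) had 24 KO and 19 WT fragments, with a ratio of 1.26 (0.663 to 2.44). The shared peak in the *Gnas* intron (chr2:174312135-174312522, 14.4 kb downstream of the Gnasxl start) had 35 and 29 fragments, with a ratio of 1.21 (0.717 to 2.05). Both ratios lay below the genome median and both intervals included it as well as 1. Summed over the pair, 59 KO and 48 WT fragments gave a ratio of 1.23 (0.826 to 1.84). The fold enrichment at the Nesp start was 7.84 in KO and 4.41 in WT, and the local background there was 2.19 in KO and 3.54 in WT, so that the pileups differed less than the fold enrichments.

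**Figure D1:**
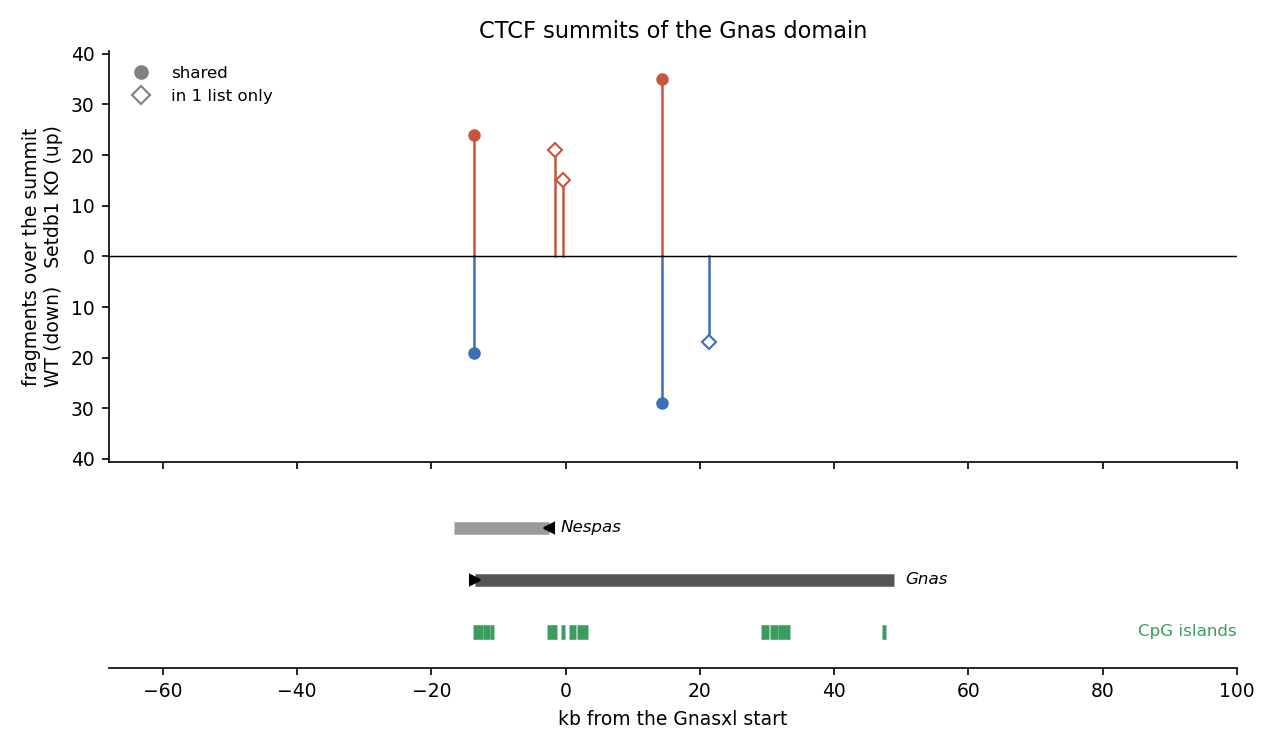
Fragments over each CTCF summit of the *Gnas* domain, KO upward in red and WT downward in blue, against the distance in kb from the Gnasxl start (filled circles, shared; open diamonds, in 1 list only), with the 2 member genes (arrowheads, starts) and CpG islands below. The KO-only summits, with 21 and 15 fragments, stand side by side before the Gnasxl start, between the shared summits 13.7 kb before and 14.4 kb after it.

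Both KO-only peaks of the domain lay in the *Nespas*/Gnasxl control region, taken as the stretch between these starts with 1 kb on each side (chr2:174294436-174298859). The peak 875 bp from the *Nespas* start (chr2:174296164-174296425) had 21 fragments and a fold enrichment of 6.90, and its summit fell in a non-coding exon of a *Gnas* transcript. The peak 443 bp from the Gnasxl start (chr2:174297359-174297584) had 15 fragments and a fold enrichment of 5.02, in a *Gnas* intron. Neither had a WT peak nearby, as the closest WT summits to these starts were 11.2 and 13.6 kb away. KO-only peaks made up most of the low peaks everywhere. Of all KO peaks with 15 to 21 fragments, 75.0% were KO-only, and of those that also had at least 10 CpG in 201 bp, 64.6%. Of annotated gene starts, taken as 1 per gene, 3.41% had a KO-only summit and no WT summit within 1 kb. Alternative starts within a gene, such as Gnasxl, were not in that share. When the KO list was shortened to the length of the WT list by the highest -log10 q, the *Nespas* peak remained KO-only and the Gnasxl peak was no longer listed.

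The control region was rich in CpG, with 192 in 4424 bp, and held 7 TGCCGC, counting both strands. Each KO-only summit lay in a CpG island, at chr2:174295020-174296551 with 77 CpG and at chr2:174297108-174297708 with 32 CpG. The Nesp summit also lay in an island (chr2:174284010-174285499, 99 CpG). These 3 were the only ones of the 11 CpG islands of the domain that held a summit of either list. At the *Nespas* start the CTCF matrix match shown above was 852 bp from the nearest summit and in no peak, whereas the match at Gnasxl was 66 bp from the summit and inside the peak. It was outside the 50 bp within which a motif was called, and with 100 bp its score of 15.0 was below the threshold of 16.6. The match at the Nesp summit was called within 50 bp, but with 100 bp its score of 14.6 was below that threshold too. The Gnasxl window held TGCCGC and the *Nespas* window did not, and 3.65% of all KO peaks had these letters in 201 bp. The Gnasxl window had 15 CpG, however, where the median of all KO peaks was 2. No share was taken over sequence equally rich in CpG, either for this window or for the counts in the control regions. The motif threshold came from windows of 101 bp, so a region of 4424 bp passes it by chance more often. Matrix matches were not counted over other stretches of that length.

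The exon 1A start, the other control region of the domain (chr2:174326570-174329023), held 167 CpG and 4 TGCCGC, and had no peak in either list. Exon 1, where the transcript of the stimulatory G protein alpha subunit begins, had none either. The closest WT summit to exon 1A was 8.32 kb away and was the WT-only peak of the domain, at position 174319249 in a *Gnas* intron, with 17 fragments and a fold enrichment of 5.82. Of all WT peaks with at most 20 fragments, 14.5% were WT-only. To the right of this WT-only peak, no WT summit followed for 213.6 kb and, in the KO list, none followed the summit in the *Gnas* intron for 141.6 kb.

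**Figure D2:**
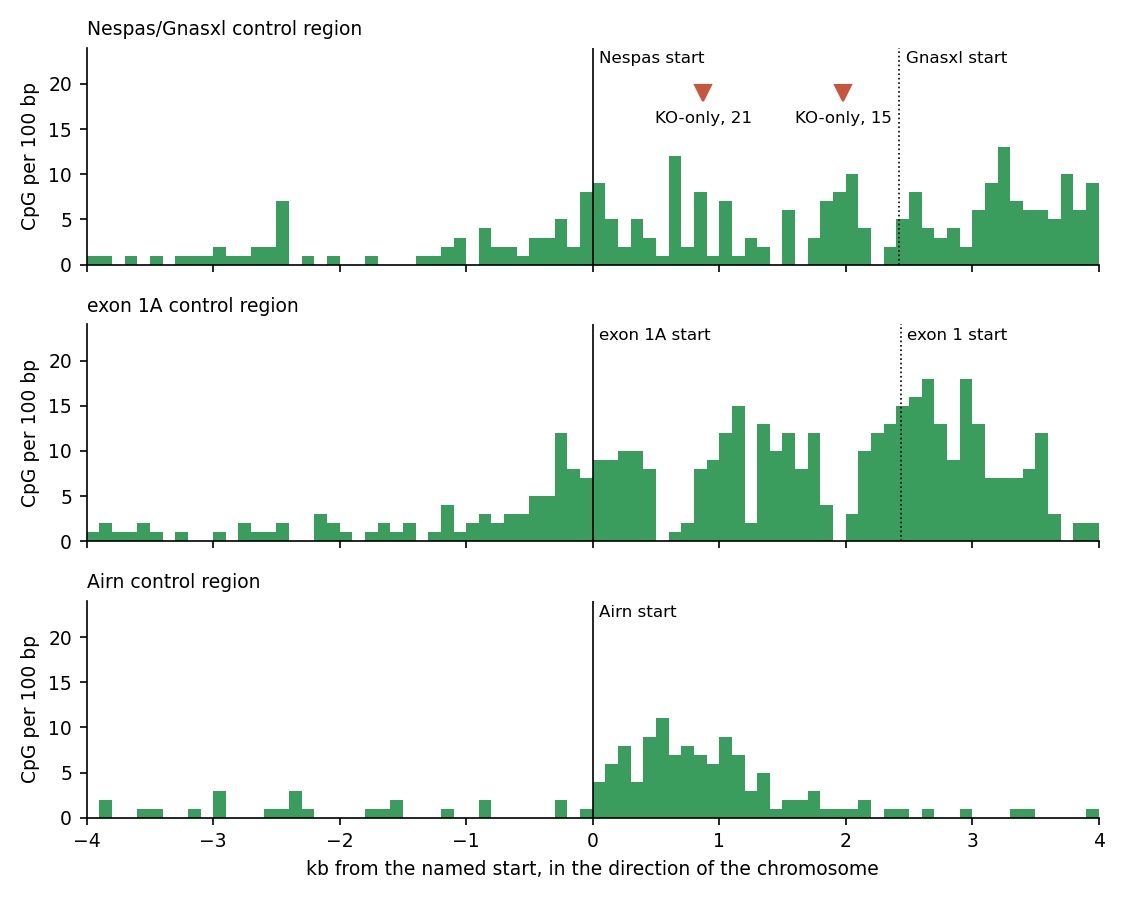
CpG per 100 bp (bars) within 4 kb of the *Nespas*, exon 1A and *Airn* starts, with CTCF summits of the KO list as triangles labelled with their fragments and dotted lines at neighbouring starts. Summits with 21 and 15 fragments, both KO-only, appear in the *Nespas*/Gnasxl region, and none appears in the other panels.

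In the *Airn-Igf2r* domain, no CTCF summit of either list lay within 1 kb of the *Airn*, *Igf2r*, *Slc22a2* or *Slc22a3* start, and over the genome 14.3% of gene starts had a KO summit and 11.3% a WT summit within 1 kb. The *Airn* control region (chr17:12740311-12742398) had 83 CpG, 7 TGCCGC, no CTCF matrix match and no peak, and none of the 4 CpG islands of the domain held a summit. The nearest WT summit was 51.6 kb from the *Airn* start and 41.0 kb from the *Igf2r* start. Both starts fell in a stretch of 120.9 kb between neighbouring WT summits, and 13.7% of such gaps in the WT list reached 100 kb. This is a share of gaps and not of sequence. Long gaps cover more of the genome, so a start falls in one more often than that share. The share of starts in such gaps was not taken. In the KO list, 2 KO-only peaks stood in this stretch, which left 82.5 kb without a summit, still with the *Airn* start and the *Igf2r* start inside it. Their summits were 30.9 and 58.1 kb downstream of the *Airn* start.

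The former of these (chr17:12772173-12772365) lay 2.58 kb upstream of the *Igf2r* start in an *Airn* intron, with 15 fragments and a fold enrichment of 4.60. It was the only KO-only peak of either domain with a called CTCF motif, and 66.3% of its 101 bp were in lower case in the assembly, which marks repeats. Its 13 letters CCAGAAGAGGGCA were also found at 3 shared sites, all in the *Slc22a3* intron, with 39, 69 and 66 KO fragments. Over the genome these letters, on either strand, were in the 101 bp of 9.03% of KO peaks, and 35.4% of the KO peaks that held them were KO-only. The latter (chr17:12799301-12799606) had 26 fragments and a fold enrichment of 6.93 without a called motif, and 34.0% of KO peaks with 21 to 40 fragments were KO-only.

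The other 5 KO-only peaks were low and lay away from the member starts. In introns of *Plg*, which encodes plasminogen, summits at 12403626 and 12407848 had 14 and 11 fragments. An intron of *Slc22a3* held a summit at 12451421 with 14 fragments, and a summit at 12525941, upstream of the *Slc22a3* start, had 11. The peak at 12879951, 451 bp from a shared summit with 100 KO fragments, had 19. Of KO peaks with at most 20 fragments, 81.4% were KO-only over the genome, and 7 of the 9 KO-only peaks of both domains were in that class. None of the 9 exceeded 40 fragments, and KO-only peaks made up 2.82% of the KO peaks with 41 to 80 fragments and 0.0885% of those with more. With lists of equal length, the peak at 12799442 with 26 fragments was the KO-only peak that remained of the 7 in this domain.

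**Figure D3:**
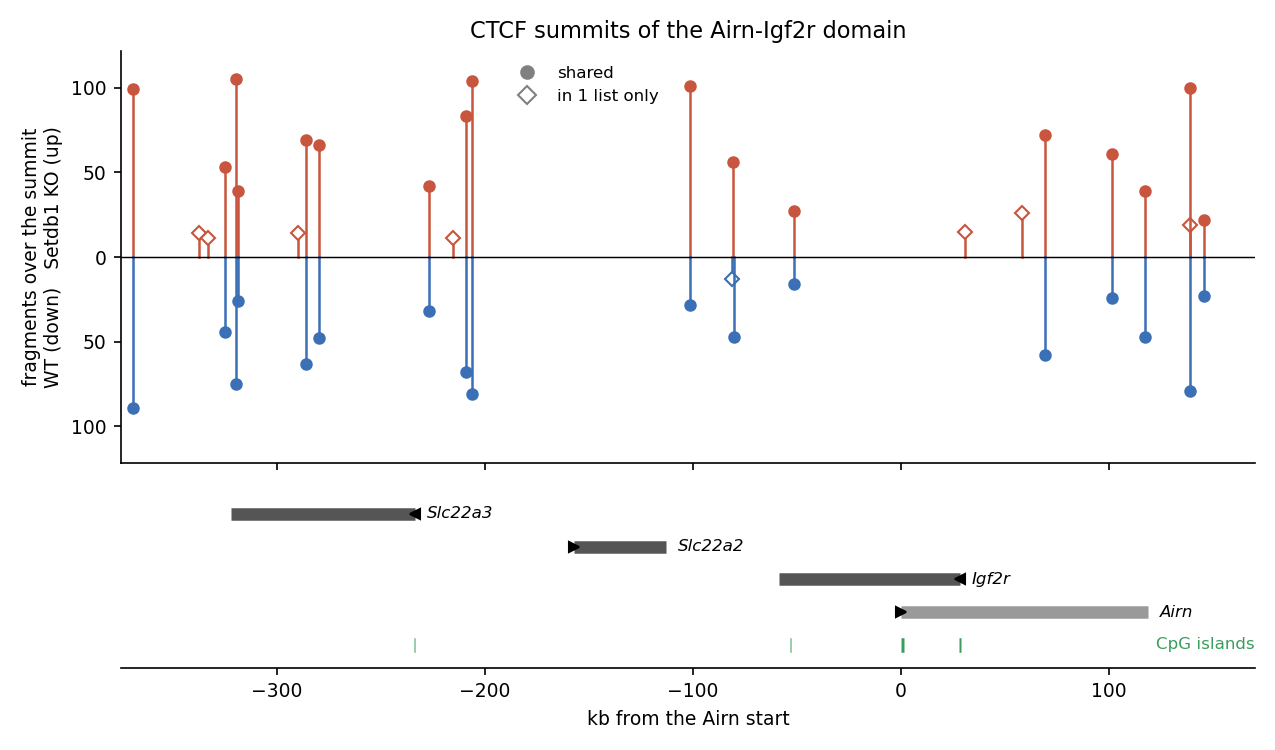
Fragments over each CTCF summit of the *Airn-Igf2r* domain, KO upward in red and WT downward in blue, against the distance in kb from the *Airn* start, with symbols, the 4 member genes and CpG islands as in the map of the *Gnas* domain. The *Airn* start stands in a gap without WT summits from 51.6 kb before it to 69.3 kb after it, and the 2 open diamonds in this gap are KO-only summits with 15 and 26 fragments.

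At the 17 shared sites of the domain, pileups ran from 22 to 105 fragments in KO (median 66) and from 16 to 89 in WT (median 47), and the sums of 1138 and 848 gave a ratio of 1.34 (1.23 to 1.47). The ratio was above 1 at 15 sites and below 1 at 2, where over the genome 7.41% of sites were below 1. Its median was 1.27, under the genome median. The interval lay wholly above 1 at 3 sites, against 31.5% of genome sites, and wholly above the genome median at 2, against 5.49%. No interval lay wholly below 1, whereas that of 0.0501% of genome sites did. In fold enrichment, which also takes in the input, KO was above WT at 10 sites and below it at 7, with a median ratio of 1.15, where the genome had a median of 1.31 and 77.0% of sites above 1. When the KO pileups were divided by the genome median ratio, the summed ratio turned to 0.987, and to 0.983 with the median of chromosome 17. At 1 site, the KO peak overlapped 2 WT peaks and the higher of these was used.

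The 2 highest ratios stood apart from the rest, and a ratio of at least 2 was found at 9.39% of sites over the genome. The site 101.5 kb before the *Airn* start (chr17:12639509-12640025), in an intergenic stretch, had 101 KO fragments against 28 WT fragments. The ratio was 3.61 (2.35 to 5.70) and exceeded that of 99.5% of genome sites. It also had the highest CTCF matrix score of either domain, 24.9 in log2 units, with the sequence shown above. The background of the input library differed at this site, at 7.73 in KO and 3.54 in WT, and the fold enrichment was therefore 11.7 in KO and 6.39 in WT, a ratio of 1.83 that was reached by 19.8% of genome sites. The part of the input in this result was not tested beyond these values.

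The site 101.6 kb after the *Airn* start (chr17:12842685-12843077), in introns of *Airn* and of *Mas1*, the angiotensin 1-7 receptor gene, had 61 KO fragments against 24 WT fragments, or 2.54 (1.56 to 4.26). Here the backgrounds were near each other, at 2.67 and 2.63, and the fold enrichment of 16.9 and 6.88 gave a ratio of 2.46. Further on in the same introns, the site at chr17:12858059-12858647 had the lowest ratio, with 39 KO and 47 WT fragments, or 0.830 (0.529 to 1.30). Its interval was the only one of the domain wholly below the genome median, as was that of 2.28% of genome sites. The intervals of these neighbours did not overlap, although that of the latter included 1. The pair was picked by ratio, as the next highest and the lowest of the domain. Such a choice favours intervals that do not overlap, so nothing is concluded from it. At the former site 90.1% of the 101 bp were in lower case in the assembly, and the latter site had no called motif.

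Without the 2 highest sites, the other 15 shared sites of the domain gave 976 KO and 796 WT fragments, a ratio of 1.23 (1.12 to 1.35). This interval lay below the genome median of 1.36 and the summed ratio of the genome, 1.38, but leaving out the highest ratios lowers the value by construction. The third highest ratio was that of the *Igf2r* intron, the shared site within this gene, with 27 and 16 fragments, or 1.69 (0.877 to 3.35). In *Slc22a3*, the adjoining sites at 12422321 and 12421340 had 39 and 26 fragments and 105 and 75 fragments, with ratios of 1.50 (0.890 to 2.57) and 1.40 (1.03 to 1.91). The latter summit was in a non-coding part of an exon and had the highest KO pileup of either domain. It was followed by the intergenic site at 12534985, upstream of the *Slc22a3* start, with 104 and 81 fragments and a ratio of 1.28 (0.951 to 1.74).

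The lowest ratios after that came from sites in and outside the member genes. At 12886843, between *Mrgprh* and *Pnldc1*, 22 and 23 fragments gave 0.957 (0.508 to 1.80). In the *Slc22a3* intron at 12455343, 69 and 63 fragments gave 1.10 (0.767 to 1.57). At 12372222, in an intergenic stretch 6386 bp from *Plg*, 99 and 89 gave 1.11 (0.827 to 1.50). The 7 sites not named had ratios from 1.19 to 1.38, and every one of their intervals included 1.

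By gene, *Slc22a2* held no peak in its body, in a gap of 104.8 kb in both lists. *Slc22a3* held 4 shared sites and 1 KO-only peak, with 279 KO and 212 WT fragments at the shared sites, a ratio of 1.32 (1.10 to 1.58). *Airn* held 3 shared sites and 2 KO-only peaks, with 172 and 129 fragments, a ratio of 1.33 (1.06 to 1.69). Both ratios are of summed pileups and lay below the summed ratio of the genome, 1.38, as well as below its median of 1.36. Both intervals included both values. In each of these 2 genes, the interval of a single site lay wholly above 1 at 1 site only. *Igf2r* had its intron site alone. *Nespas* held the shared Nesp peak, and *Gnas* held 1 shared site, the 2 KO-only peaks and the WT-only peak.

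**Figure D4:**
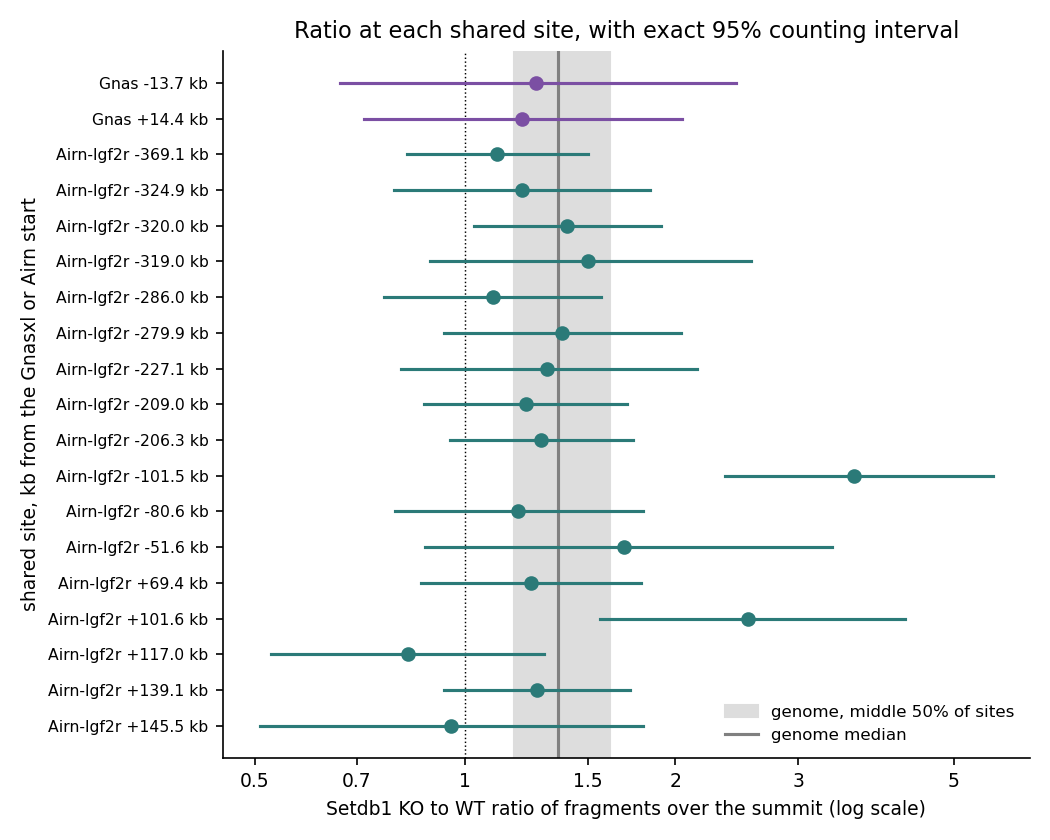
Ratio of KO to WT fragments at the 19 shared sites (points, log axis) with exact 95% counting intervals (lines), by distance from the Gnasxl start (purple) or the *Airn* start (green). The grey line and band are the genome median of 1.36 and its quartiles, and the sites with ratios of 3.61 and 2.54 are the ones with intervals wholly above the line.

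CTCF motifs were more frequent at the shared than at the KO-only peaks of the domains, as they were in the whole list. Within 50 bp of the summit, a matrix match passed the threshold at 15 of 19 shared KO peaks (78.9%) and at 1 of 9 KO-only peaks (11.1%), beside 65.5% of the shared and 36.5% of the KO-only peaks of the whole list. With the lower threshold of the 95th percentile these were 100% and 11.1% in the domains, and 83.1% and 55.6% in the whole list. With 100 bp on each side, they were 42.1% and 11.1% in the domains, and 45.6% and 27.6% in the whole list, so that the shared peaks of the domains were then below the list. Neither WT-only peak had a motif, and 15.4% of all WT-only peaks did. Of the 16 KO peaks with a motif, 5 had it on the plus strand and 11 on the minus strand, where the whole list had 17096 and 17019. The numbers are small, and no test was run on them.

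A CpG at core positions 2 and 3, counted from the 5′ end of the capital letters, is where methylation is known to weaken CTCF binding. It was present at 1 of these 16 motifs, that of the Nesp start, and at 4.12% of all motifs in KO peaks. A CpG at core positions 12 and 13 was present at 5 of 16, beside 36.3%. In the RefSeq promoter table, 8 windows of 300 bases matched 5 of the 6 genes. No window covered the *Nespas* or Gnasxl start, and the windows at exon 1A overlapped each other. The Nesp promoter was the only one of the 8 with a CTCF matrix match, which 4.63% of all promoters in the table had. TGCCGC was in 1 of the 8, that of *Slc22a2*, and in 11.6% of all promoters.

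**Figure D5:**
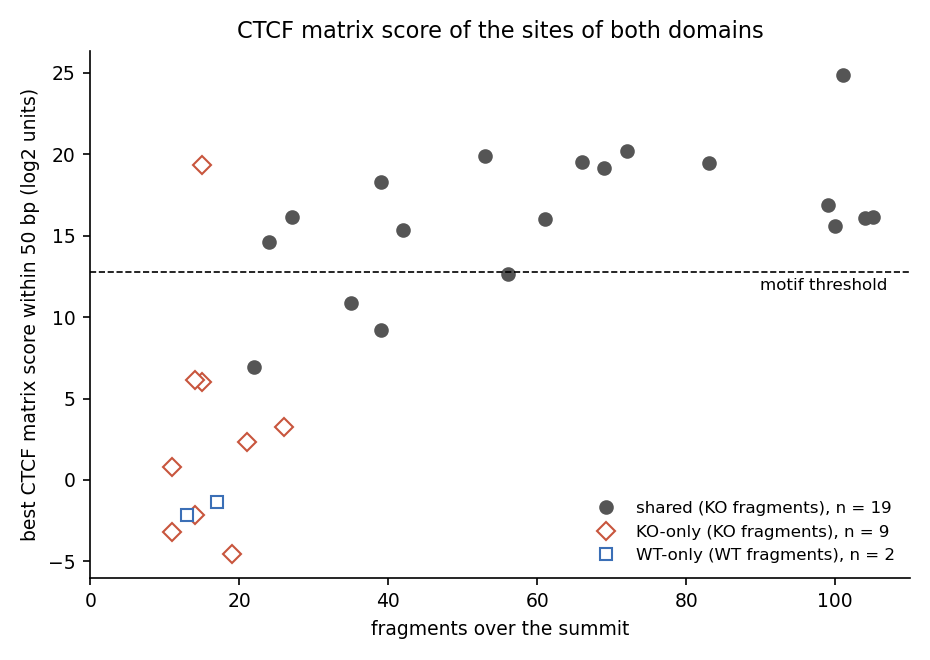
Best CTCF matrix score within 50 bp of the summit (log2 units) against the fragments over the summit for the 30 sites of both domains. Shared sites (circles) extend to 105 fragments and mostly lie above the dashed threshold of 12.8, and KO-only sites (diamonds) have 11 to 26 fragments and lie below it except the one at 19.4. The WT-only sites (squares) lie below it as well.

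The same measures were taken round the domains and near other genes. Within 1 Mb on each side, 14 of 51 KO peaks round *Gnas* (27.5%) and 10 of 44 round *Airn-Igf2r* (22.7%) were KO-only, and the median ratio was 1.42 at 37 and at 34 paired sites. Near 36 other imprinted genes, 25 of 89 KO peaks within 10 kb were KO-only (28.1%), with a median ratio of 1.39 at 63 sites. A list of 19 genes for imprint maintenance and the control of DNA methylation, such as *Zfp57*, *Trim28*, *Dnmt1*, *Tet1* and *Tet2*, had 18 annotated genes. Near these, 26 of 70 KO peaks were KO-only (37.1%), with a median of 1.35 at 44 sites. In the KO list, the summits nearest to the 50 kb limit were at the left end of the *Airn-Igf2r* domain, with a pileup of 99 at 46.7 kb from *Slc22a3* inside it and of 27 at 51.4 kb outside it.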

How the data were processed

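CTCF ChIP-seq peak lists of WT and *Setdb1* KO cells, from 1 library each, were used. For each library the authors mapped reads to mm10 (GRCm38) with Bowtie 1.2, took out duplicates using Picard, and ran MACS2 2.1.0 against input at a q of 0.05. The fold enrichment deposited by the authors is the ratio of pileup to background at the summit, each plus 1, the p and q are -log10 values, the score is 10 times the -log10 q, and a further column deposited by the authors gives the bp from peak start to summit. H3K9me3, SMC3, RNA, methylation and Hi-C data, the catalytic mutants and the second CTCF library of each of these conditions were not analysed here.

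Fold enrichment and Poisson -log10 p were solved for pileup and background (within 0.001 for 100% of WT and 99.99% of KO peaks). Depth was derived from the lowest background, with the effective genome size of the Methods. Peaks overlapping by 1 bp were called shared. A site joins overlapping peaks and takes the highest pileup of each list. Starts of members, alternative ones included, were clustered from GENCODE vM21. Gene starts over the genome are those of protein-coding, antisense and lincRNA genes, 1 per gene at its 5′ end. CpG islands were stretches of at least 500 bp in which windows of 200 bp had at least 50% GC and an observed to expected CpG of 0.6. The CTCF matrix (20 positions) was built from the 1000 shared KO peaks with the highest -log10 q outside both domains, and a motif was called above the 99th percentile of windows 1 kb away. The solving of pileups, the overlap of peaks and the calling of motifs were first tested on simulated data with known answers. The intervals were checked against a standard binomial routine. Depth, the joining of sites, the clustering of starts and the CpG islands were not tested in this way. With the library analysed per condition, no test between conditions was possible, and intervals cover counting error only.

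Named were every member, every peak within 1 kb of a member start or in a control region, every KO-only and WT-only peak, and per domain the 5 shared sites with the highest and the 5 with the lowest ratio and the 3 with the highest KO pileup. A shared site and a WT-only peak that this rule names are not reported here. The members and lists were chosen with earlier results of these data known. The letters CCAGAAGAGGGCA and the figures by pileup class were chosen after the values were seen. Software comprised pysam 0.24.0, samtools 1.23.1, scipy 1.17.1, matplotlib 3.10.9, pandas 2.3.3, numpy 2.4.6 and Python 3.11.15.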

Additional observations from a re-analysis of the deposited data

How the results depend on the processing

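The 2 KO-only peaks of the *Gnas* domain became 1 with lists of equal length, and were 2 or 3 under the other alternatives. The 7 of the *Airn-Igf2r* domain became 4 when both lists were held to a -log10 q of 5 or more, 3 with a fold enrichment of at least 5, 1 with lists of equal length and 3 inside the genes alone (0 kb). The 2 WT-only peaks became 4 with a reciprocal overlap of 50%, and 1 with either of the stricter thresholds or with windows of 0 or 20 kb. The ratio of summed pileups of the *Airn-Igf2r* domain, 1.34, went below 1, to 0.987 and 0.983, when KO pileups were divided by the median ratio of the genome or of the chromosome, and ran from 1.27 to 1.46 under the other alternatives. Dividing by these medians sets the typical site to 1, so it removes any difference that all sites share. The *Gnas* ratio of 1.23 became 0.904 and 0.922 in the same way, within its interval, and subtracting the background, an alternative chosen after seeing the data, gave 1.28 and 1.35. The share of KO peaks with a motif, 57.1%, fell to 32.1% with 100 bp on each side of the summit, where the threshold is higher, and was 71.4% with the 95th percentile, while the whole KO list had 57.2%, 40.4% and 75.2% in the same order. The count of 3 peaks at promoters and control regions stayed 3 with 500 bp and with 2 kb. The 2 KO-only summits among them lay between the *Nespas* and Gnasxl starts, a stretch that is counted at any distance. This part of the result was therefore fixed in advance. Of 57 recomputed ratios of single sites, 49 stayed within their intervals and 8 moved out of them. Pileups of 11 to 26 fragments limit what the KO-only peaks can show, and with 1 library per condition a difference between libraries cannot be told apart from that between conditions. No paired analysis was possible because 1 library per condition was analysed and no result came from a test.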
